A study of Mus musculus with 15 samples.

Results

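The comparison set AM-14 B cells given anti-IgM together with CpG (anti-IgM+CpG, 3 samples) against AM-14 B cells given anti-IgM alone (anti-IgM, 3 samples), 6 of the 15 arrays of the series. Samples were chosen by their titles, and all 13160 genes that passed a filter on low signals were tested. AM-14 mice carry a transgenic B cell receptor that acts as a rheumatoid factor, binding IgG2a, so that anti-IgM engages the receptor through its own constant region. Anti-IgM was an F(ab')2 goat anti-mouse IgM per the labels of the anti-IgM group. The labels name the agent of the CpG group as the phosphorothioate oligonucleotide 1826. In the anti-IgM+CpG group both agents are given by title and description, but the treatment entry is none, so the oligonucleotide of that group, the doses and the times are unknown here. The other groups, used to share the spread, were CpG alone, PL2-3 chromatin immune complexes and media, with 3 samples each. Strain background, age and sex of the mice, and whether replicates came from separate mice, are not stated in the sources used here, and p-values therefore refer only to variation among these samples, which may be technical.

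Cross-linking of the B cell receptor by anti-IgM activates Syk, phospholipase C and calcium signals, with ERK and NFAT downstream, and induces immediate early genes of the Egr and Nr4a families. CpG oligonucleotides are taken up into endosomes and bound by TLR9, which signals through MyD88, IRAK kinases and TRAF6 to NF-kB and to interferon regulatory factors. In B cells TLR9 stimulation is known for cytokine release, for costimulatory molecules and for proliferation, and the combination with receptor cross-linking has been studied as a model of how DNA-containing antigens activate autoreactive B cells.

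B cell transcripts were measured in both groups. The 9 tested B cell markers summed to between 166660 and 314820 signal units on anti-IgM+CpG arrays and to between 201230 and 243390 on anti-IgM arrays, and 1 of them, Cd79b, was called (lower). The median signal of a probe set was 266 to 303 on anti-IgM+CpG arrays and 279 to 468 on anti-IgM arrays. Signals are MAS5 intensities, in arbitrary linear units. Myeloid markers were present too and summed to 198300, 39405 and 61211 on anti-IgM+CpG arrays against 111080, 171980 and 122820 on anti-IgM arrays. Of 20 myeloid markers tested, 5 fell and none rose, among them Csf1r, the receptor for macrophage colony-stimulating factor, by 2.00 (log2). Erythroid markers summed to 126860, 39884 and 42095 on anti-IgM+CpG arrays against 61193, 89869 and 47526 on anti-IgM arrays, with no member called. T cell markers summed to between 3483 and 7847 against 5935 to 9451, with 2 of 11 lower (Lat and Cd28), and NK cell markers to between 4971 and 12653 against 4947 to 11417, with no member of 11 called. Plasmacytoid dendritic cell markers summed to between 97274 and 120040 against 45408 to 76468, with no overlap. Irf8 alone read 66007 to 79255 against 21437 to 37517. Of 10 plasmacytoid dendritic cell markers Lag3 and Irf8 rose and Ccr9 fell. With labelling read from the actin ratio, as described next, Cd28 and Ccr9 were not called. Of the 5 myeloid falls only 2 were called with both ways of entering labelling. Beside these marker counts, 3.72% of all genes tested were called higher and 5.36% lower. In whole-sample RNA, fewer cells of a type and less RNA per cell cannot be told apart, and the part of these other cells in the results was not tested. Replicate 1 of anti-IgM+CpG had the highest myeloid, erythroid, NK cell and B cell sums of the 6 arrays.

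The labelling measures and the Xist level of the arrays were checked before the genes. The beta-actin control's 5' to 3' ratio, a measure of how far labelled RNA extends towards the 5' end of the transcript, was 0.105, 0.193 and 0.177 on anti-IgM+CpG arrays, against 0.335, 0.747 and 0.135 on anti-IgM arrays. The labels give the Enzo kit for replicates 1 and 2 and the Ambion kit for replicate 3 of every group. Elsewhere in the series the 8 arrays labelled Enzo had ratios of 0.335 to 0.747 and the 4 labelled Ambion had 0.108 to 0.201. Replicates 1 and 2 of anti-IgM+CpG, labelled Enzo, thus lay with the Ambion arrays. The GAPDH 5' to 3' ratio ran from 0.135 to 0.409 on anti-IgM+CpG arrays and from 0.339 to 0.989 on anti-IgM arrays. In both ratios anti-IgM replicate 3 lay within the range of the anti-IgM+CpG arrays, and the other anti-IgM arrays lay above it.

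Labelling was therefore entered in 2 ways. The first fit used the kit of the labels, and the second replaced it by the actin class (ratio under or over 0.26, with 7 and 8 arrays), here called the actin-based fit. Syt11 shows why both are given. Its probe set read 79700, 44084 and 62512 on anti-IgM+CpG arrays and 681, 1038 and 54396 on anti-IgM arrays. Anti-IgM replicate 3, the low-ratio array, matched the anti-IgM+CpG arrays. Over all 15 arrays Syt11 was between 44080 and 79700 on the 7 low-ratio arrays and between 475 and 1315 on the 8 high-ratio arrays, and its log2 change was 4.08 with the kit of the labels and 0.11 actin-based. Taok1 ran the other way, at 32.8 to 134 on low-ratio and 2915 to 12480 on high-ratio arrays, with changes of -3.70 and -0.04. Both genes were picked after their values were seen. Of the 1194 genes called with the kit of the labels, 127 had anti-IgM replicate 3 within the range of the anti-IgM+CpG arrays, and 0 of these were called in both fits. The actin-based fit leans on that low-ratio array, so the count of 0 follows largely from how the 127 were chosen.

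Xist, the RNA that coats the inactive X chromosome of female cells, read 589, 391 and 321 on anti-IgM+CpG arrays, against 6936, 15261 and 13326 on anti-IgM arrays and 4252 to 15540 over the other 12 arrays. Against the anti-IgM arrays the Y-linked genes went the other way. Eif2s3y read 2486 to 4769 on anti-IgM+CpG arrays and 735 to 2049 on anti-IgM arrays, Kdm5d 1035 to 1146 and 476 to 708, and Uty 275 to 370 and 191 to 228. Each was higher on every anti-IgM+CpG array than on every anti-IgM array, as were 9.25% of all genes tested, and none was called. High Y-linked signals were not particular to anti-IgM+CpG. Media replicate 3 read 4782 for Eif2s3y, 1771 for Kdm5d and 788 for Uty, above every anti-IgM+CpG array. In each of the other groups Eif2s3y was highest on the low-ratio replicate 3. That array read 2049 against 1448 and 735 in anti-IgM, 2440 against 1454 and 605 in CpG, and 1517 against 1436 and 895.5 in PL2-3. Kdm5d and Uty did not follow this in every group. The part of labelling in the Y-linked signals was not tested. Of 389 tested genes of the X chromosome 6 were higher and 21 lower. The share lower was near the 5.36% of all genes tested, and the share higher was under their 3.72%. The samples of anti-IgM+CpG thus differed from all other samples in Xist, and a difference in the sex or source of the mice cannot be told apart from the added CpG.

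**Figure D1:**
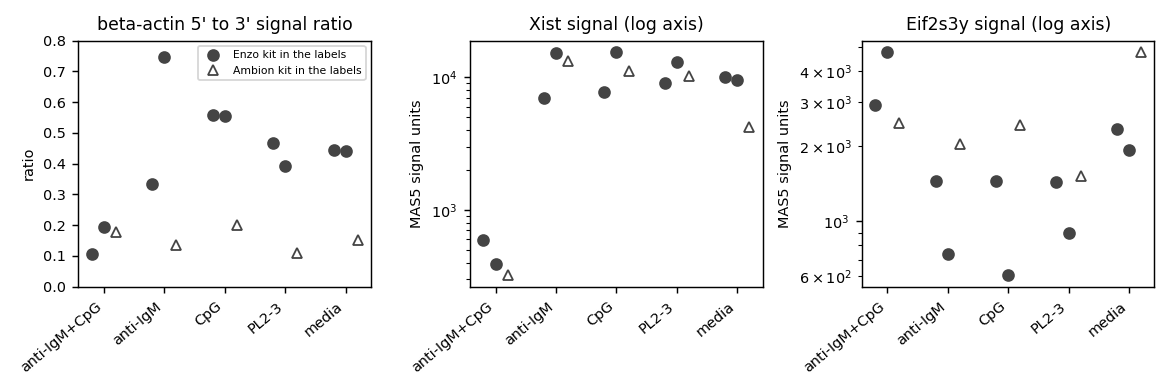
Beta-actin 5' to 3' ratio (left), Xist signal (middle) and Eif2s3y signal (right, both in MAS5 units on log axes) of each of the 15 arrays by group, with filled circles for the Enzo kit and open triangles for the Ambion kit of the labels. The 3 anti-IgM+CpG arrays lie at ratios of 0.105 to 0.193 and at Xist signals of 321 to 589, below the Xist signal of each of the other 12 arrays.

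Between anti-IgM+CpG and anti-IgM, 1194 of 13160 genes (9.07%) were called with the kit of the labels, with 489 higher (3.72%) and 705 lower (5.36%). The model was limma on log2(signal + 75.2) over all 15 arrays, and a gene was called at a Benjamini-Hochberg adjusted p under 0.05. The actin-based fit called 507 (3.85%), with 171 higher (1.30%) and 336 lower (2.55%). Both fits called 395 genes in the same direction, 142 higher and 253 lower, and 0 genes in opposite directions. The 3 anti-IgM+CpG arrays all lay above the 3 anti-IgM arrays for 1217 genes (9.25%) and below them for 1851 (14.1%). Without single arrays the count ranged from 409 (without anti-IgM replicate 2) to 2137 (without anti-IgM+CpG replicate 3), and it was 952 and 497 without replicates 1 and 2 of anti-IgM+CpG, and 585 and 701 without replicates 1 and 3 of anti-IgM. Leaving out 1 array ended the call of 9 (without anti-IgM+CpG replicate 3) to 39 (without anti-IgM replicate 2) of the 103 named genes. In all, 43 named genes lost the call without at least 1 of the 6 arrays, among them Rnd3 alone of the 27 named by size. The calls of Ccl3 and Vav1 ended without each of the 6 arrays in turn, and those of Atf6, Cxcl1, Dusp6, Fcgr2b, Hspa1a, Irak3, Pmvk, Rfx5, Slc2a3, Tcp1 and Traf6 without 5 of them. Those of Bbc3, Bmf, Ccl5, Cd28, Cd300a, Cd79b, Cxcl10, Dusp1, Eif2ak3, Nop56, Pes1, Plk2 and Psmd14 ended without 4 of them.

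The direction of the count depended on the scale. The median log2 change of all genes was -0.11, so a typical gene sat slightly below 0. Shifting the arrays to the same median moved that to 0.24 and gave 1218 higher against 259 lower calls (82.5% higher, against 41.0% without the shift). Changes are read here beside the median of all genes, and log2(signal + 75.2) understates changes of genes with low signals. "Rose" and "fell" below stand for calls with the kit of the labels, and it is said where a gene was not called actin-based. Counts of list members below stand beside 3.72% higher and 5.36% lower of all genes tested.

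**Figure D2:**
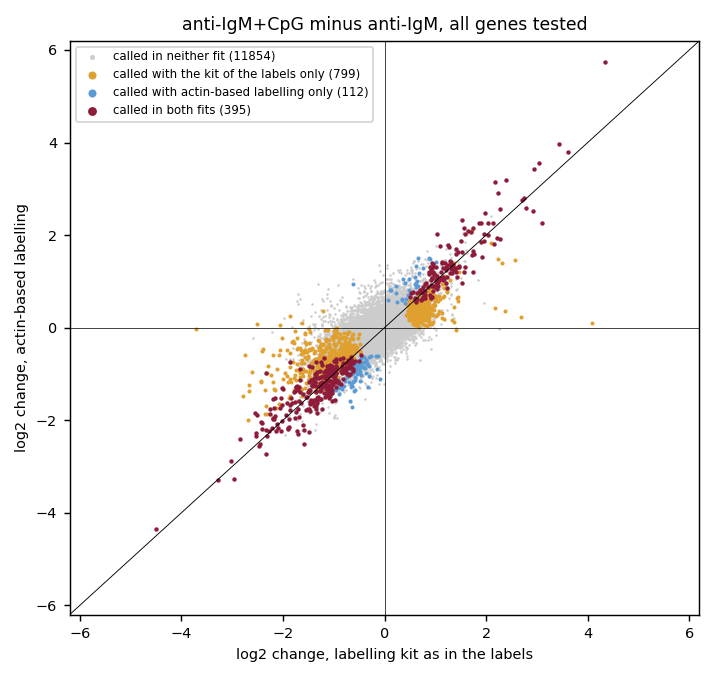
Log2 change of each tested gene in anti-IgM+CpG minus anti-IgM with the kit of the labels (x axis) against the actin-based fit (y axis), coloured by which fit called it, with the line of equal change. The 395 genes called in both fits lie on the same side of 0 in each.

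Ifng and Tbx21 had the largest rises of the genes named by size. The naming by size required a call in both fits and no overlap between the 2 groups. For genes named by size neither is therefore added support. Ifng, the gene of interferon-gamma, read 21857, 3948 and 2740 signal units with anti-IgM+CpG, against 394, 273 and 109 with anti-IgM. Every anti-IgM+CpG array was above every anti-IgM array, and replicate 1, the array with the highest myeloid and NK sums, was the highest. The log2 change was 4.34 (SE 0.76, adjusted p = 0.003), 5.74 actin-based (adjusted p = 0.00167) and 3.74 without anti-IgM+CpG replicate 1. Tbx21, which encodes T-bet, the transcription factor that drives Ifng, read 23768, 23049 and 16567 against 1797, 1519 and 1602. The groups were far apart and tight, with a change of 3.61 (SE 0.47, adjusted p = 3.26e-04) and 3.81 actin-based. Il2, a T cell growth factor, read 1269, 1541 and 1799 with anti-IgM+CpG, against 532, 407 and 73.7 with anti-IgM, a rise of 2.18 (SE 0.48, adjusted p = 0.0108) that was 3.15 actin-based and 1.86 without anti-IgM replicate 3 (adjusted p = 0.0547). Ifng and Il2 are better known from T and NK cells, whose summed markers were given above.

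Il6, an inflammatory cytokine that B cells release on TLR stimulation, read 5863, 5423 and 4238 with anti-IgM+CpG, against 767, 243 and 344 with anti-IgM. The rise was 3.43 (SE 0.33, adjusted p = 1.59e-05) and 3.97 actin-based. In 25 cytokine genes tested, 7 rose and 2 fell, and 6 and 2 of those were called in both fits. The median over the list was 0.32, against -0.11 over all genes, and it turned to -0.06 when a gene had to pass the filter on all 15 arrays. Besides Ifng, Il6 and Il2, the rises were Lta, which encodes lymphotoxin alpha (1.70), Il12b, a chain of IL-12 and IL-23 (1.52), Ebi3, a chain of IL-27 and IL-35 (1.34), and Il1b (0.89). Il1b was not called actin-based (0.59, adjusted p = 0.179). Tgfb1 fell by 1.33 and Csf1, the macrophage growth factor, by 1.03. Il10 was at 1233, 515 and 215 against 546, 301 and 205 and Tnf at 6542, 6469 and 9406 against 4002, 6234 and 6614, and neither was called.

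The promoter of Il6 is shown because Il6 alone of the 13 size-ranked rises with a promoter window holds a match to the NF-kB motif. The window, from RefSeq on GRCm38.p6, is chr5:30012864-30013163 on the + strand and runs from 250 bases before to 50 bases after the start of the gene. The match, in capitals, begins 44 bases before the start site.
Il6: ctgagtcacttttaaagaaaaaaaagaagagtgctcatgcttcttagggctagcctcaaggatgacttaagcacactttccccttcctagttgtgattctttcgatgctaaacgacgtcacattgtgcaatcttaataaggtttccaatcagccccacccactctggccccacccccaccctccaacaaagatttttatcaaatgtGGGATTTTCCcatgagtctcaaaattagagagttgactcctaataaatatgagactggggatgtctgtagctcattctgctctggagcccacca
The motif was GGG, any 2 bases and TTTCC, on either strand. It was in 2.47% of windows of genes called higher and in 3.07% of those called lower, against 2.00% of tested genes and 1.89% of all 27025 windows. For genes called in both fits the order was reversed, with 4 of 118 higher genes (3.39%) and 4 of 205 lower genes (1.95%). The interferon response motif (TTTC, any 2 bases, TTTC) was in 5.93% of windows of genes called higher and 3.75% of those called lower, against 3.58% of tested and 3.99% of all windows. These shares are a description with no test.

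Feedback regulators of cytokine signalling and the transcription factors Batf and Irf1 rose too. Socs3, an inhibitor of cytokine receptor signalling induced through STAT3, read 11956, 11067 and 12371 with anti-IgM+CpG, against 1596, 1762 and 1118 with anti-IgM. With a change of 2.94 (SE 0.21, adjusted p = 3.29e-06) and 3.43 actin-based, it had one of the smallest errors among the largest rises. Socs1 (1.98) and Cish (1.25), of the same family, also rose in both fits. They were the 3 calls among 18 SOCS, STAT and Janus kinase genes tested, with none lower. Batf, an AP-1 family factor needed for class switching, read 14764, 21848 and 20300 against 2976, 3380 and 2028. Its change was 2.74 (SE 0.24, adjusted p = 8.67e-06) and 2.80 actin-based. Irf1, a transcription factor induced by interferon-gamma and NF-kB, read 43075, 34052 and 35103 against 11308, 6075 and 7108, a change of 2.23 (SE 0.33, adjusted p = 0.00101). It was the sole call among 33 interferon-stimulated genes (median 0.25), a share near the 3.72% of all genes that were higher. Ifit1 read 19355, 3298 and 3435 against 5041, 4182 and 2943, and the median of that list turned to -0.11 without anti-IgM+CpG replicate 1.

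The NF-kB lists held more rises than falls. Of 17 NF-kB target genes, 6 rose and 1 fell, and all 6 rises were called in both fits. They were Cd40, the receptor for T cell help (1.46), Bcl2l1, the survival gene of Bcl-xL (1.44), Icam1, an adhesion molecule (1.42), Ccnd2, cyclin D2 (1.14), Traf1 (0.99) and Tnfaip3, the A20 brake on NF-kB (0.88). For Bcl2l1, Traf1, Tnfaip3 and Ccnd2 at least 1 other probe set went the other way, at -1.01, -1.38, -0.11 and -0.22 at the lowest. With the mean of its probe sets the change of Bcl2l1 was 0.17 (adjusted p = 0.774) and it was not called. Plk2 fell by 1.77 and was not called actin-based. The median over the list was 0.50 and stayed above 0 under each of the alternatives run. Cd40 read 14499, 14991 and 14422 with anti-IgM+CpG, against 4930, 4108 and 7246 with anti-IgM. Of 15 NF-kB subunits and inhibitors, 4 rose and none fell: Nfkbiz (1.58), an inducible co-activator of Il6, Bcl3 (1.01), Nfkbib (0.99) and Nfkb2 (0.77), the last not called actin-based (0.54). The other probe sets of Nfkbiz were at -0.46 and 0.33, and with the mean of its probe sets its change was 0.49 (adjusted p = 0.421) and not called. Their list's median was -0.15, below 0 while its 4 calls were above, and it turned positive when the arrays were shifted to the same median and in the actin-based fit (0.07).

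The pathway of TLR9 itself held as many rises as falls. Of 25 TLR9 and MyD88 pathway genes 2 rose and 2 fell, beside 3.72% higher and 5.36% lower of all genes tested. Irf8, a B cell and dendritic cell regulator, read 79255, 68703 and 66007 against 33744, 21437 and 37517 (1.24, SE 0.20, adjusted p = 0.00198), and with the mean of its probe sets its change was 0.70 and not called (adjusted p = 0.103). Traf6 rose by 0.71 and was not called actin-based (adjusted p = 0.0817). The 4 other probe sets of Traf6 ran from -0.70 to 0.16. With the mean of its probe sets its change was 0.06 (adjusted p = 0.9) and not called. Irak2 fell by 1.23 and Irak3, an inhibitory kinase relative, by 1.03, both in the 2 fits. The Irak3 call ended without 5 of the 6 arrays in turn (adjusted p from 0.0504 to 0.146), all except anti-IgM+CpG replicate 2, and with the mean of its probe sets. Tlr9 itself read 466, 130 and 363 with anti-IgM+CpG, against 893, 1094 and 212 with anti-IgM, overlapping and not called (-0.91, adjusted p = 0.27). Myd88 read 3770, 3671 and 3356 against 3329, 2760 and 3256 and was not called either.

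Other size-ranked rises included genes outside immune lists. Serpinb9b, a relative of the granzyme inhibitor Serpinb9, read 6746, 10069 and 12927 against 1460, 1362 and 651 (3.04, SE 0.33). Slc7a3, a transporter of cationic amino acids, read 7955, 11105 and 9532 against 1129, 1284 and 1128 (2.92, SE 0.26). Ocln, occludin of tight junctions, read 1382, 1266 and 1228 against 193, 86.5 and 105 (2.78, SE 0.36). All were called in both fits, with no overlap between groups, as the naming by size required. Tnfsf14, the TNF family ligand LIGHT, read 710, 519 and 491 with anti-IgM+CpG, against 24.0, 18.6 and 25.3 with anti-IgM. Its change was 2.71 (SE 0.52, adjusted p = 0.00509), and since the anti-IgM signals lay under the pseudocount the value ran from 1.60 to 4.65 over the alternatives. Hsd11b1, which makes active glucocorticoid (2.26), Rhbdl3 (2.28), Rnd3 (2.38), A630072M18Rik (3.09) and BC035044 (2.21) completed the 15. The Rnd3 call ended under 6 alternatives, among them without anti-IgM+CpG replicate 2 (2.10, adjusted p = 0.0772) and without anti-IgM replicate 2 (2.31, adjusted p = 0.0606).

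**Figure D3:**
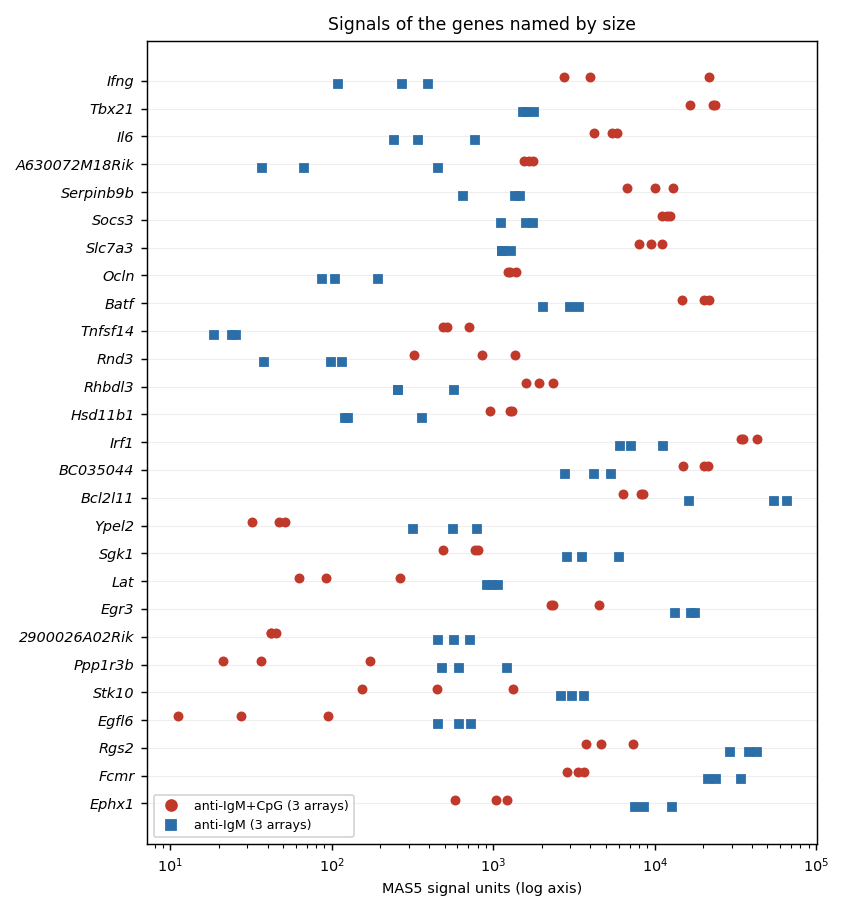
MAS5 signal units on a log axis for the 15 largest rises and 12 largest falls that both fits called, 1 point per array, with anti-IgM+CpG as circles and anti-IgM as squares. For each of the 27 genes the 3 arrays of one group lie on one side of the 3 of the other, which the choice of genes required.

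Activation genes held more rises than falls, and B cell identity genes held falls and no rise. Of 20 activation and costimulation genes, 6 rose, all in both fits, and Tnfrsf9 fell by 1.04 and was not called actin-based. Slamf1, a homophilic costimulatory receptor, read 5786, 5236 and 5662 with anti-IgM+CpG, against 1552, 1253 and 1135 with anti-IgM (2.03, SE 0.29, adjusted p = 6.19e-04). Tnfrsf13b, which encodes the BAFF and APRIL receptor TACI, rose by 1.56, Il2ra by 1.26 and Cd274, which encodes PD-L1, by 1.04. Cd86 read 11277, 12676 and 13869 against 20491, 29389 and 19026, below in each array, and was not called (-0.84, adjusted p = 0.0641). Cd69 read 8806, 21812 and 9078 against 16508, 14919 and 6792, with the groups overlapping.

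Of 19 B cell lineage genes 8 fell and none rose, 6 of them in both fits, with a median of -0.74. Fcmr, the Fc receptor for IgM, read 3625, 2857 and 3361 with anti-IgM+CpG, against 23961, 21423 and 34062 with anti-IgM. The log2 change was -2.96 (SE 0.26, adjusted p = 8.67e-06) and -3.27 actin-based. Ets1, a factor that restrains plasma cell differentiation, fell by 1.88, Fcrla by 1.58, Cd79b, a signalling chain of the receptor, by 1.35, Ikzf1 by 1.03 and Cr2, complement receptor 2, by 0.95. Ebf1, which maintains B cell identity, read 1318, 2779 and 2542 against 12749, 10314 and 2765. Its anti-IgM replicate 3 lay within the anti-IgM+CpG range, and the change of -1.73 was -0.45 actin-based and not called. Bach2 fell by 0.74 and was not called actin-based. Of 13 marginal zone markers 7 fell, 3 in both fits, with a median of -0.73. S1pr3, a sphingosine phosphate receptor, read 2390, 1938 and 2152 against 10172, 11455 and 10455, a change of -2.27 (SE 0.21, adjusted p = 1.31e-05). Dtx1, a Notch target, fell by 1.34. Both medians stayed below 0 under each alternative run.

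Immediate early genes of receptor signalling held more falls than rises. Of 26 tested, 9 fell, 3 rose and 14 were not called, and 6 and 2 of them were called in both fits (median -0.65, -0.12 actin-based). Egr3 read 2276, 4510 and 2353 with anti-IgM+CpG, against 17758, 16824 and 13363 with anti-IgM. It fell by 2.42 (SE 0.26, adjusted p = 4.7e-05) and by 2.04 actin-based. Egr1 read 12283, 11347 and 10169 against 47475, 48386 and 19817, with anti-IgM replicate 3 the lowest of its group, and its change of -1.66 was -0.88 actin-based. Nr4a2 fell by 2.04, Klf4 by 1.86, Klf2 by 1.74, Fosl2 by 1.42 and Ier2 by 1.03. Of these Klf4 was not called actin-based (-1.48, adjusted p = 0.0807) or without anti-IgM replicate 2. Klf2 averaged 16060 signal units in media and 5868 with anti-IgM, so it was not a gene raised by anti-IgM alone. Nr4a1, the reporter gene of receptor signal strength, read 18355, 20307 and 21106 against 58295, 60379 and 25274, and its change of -1.16 was -0.06 and not called actin-based. Jun rose by 2.14 against the trend, with 6528, 10879 and 10079 against 1773, 3181 and 1344, and it was called in both fits.

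Feedback genes of the ERK pathway held falls and no rise. Of 17 ERK feedback genes 5 fell and none rose, 3 in both fits, with a median of -0.56. Spry2, an inhibitor of the Ras-ERK pathway, read 629, 588 and 614 against 3156, 1698 and 1901 (-1.71, SE 0.29, adjusted p = 0.00221). The other probe set of Spry2 was at 0.01. Dusp2 and Dusp6, phosphatases that act on ERK, changed by -1.18 and -1.39. Of 20 calcium and NFAT genes 3 fell, Itpr3 (-1.44), Orai2 (-1.40) and Nfatc1 (-0.84), of which only Itpr3 was called in both fits, and the median of -0.34 reached 0.01 when the arrays were shifted to the same median. Of 21 receptor chain and proximal signalling genes 3 fell (Cd79b, Bank1 by 1.27 and Vav1 by 0.62) and Cd81 rose by 1.29. Over all genes tested 3.72% were higher and 5.36% lower, so 1 rise of 21 was near the background share. Among 17 inhibitory receptors and phosphatases, Inpp5d, the SHIP-1 phosphatase, fell most. It read 1895, 1039 and 1162 with anti-IgM+CpG, against 6678, 7203 and 6782 with anti-IgM, a change of -2.32 (SE 0.20, adjusted p = 8.7e-06) and -2.34 actin-based. Fcgr2b, Cd5, Ptpn22 and Cd300a changed by -1.17, -1.13, -1.05 and -1.21, while Lag3 (1.86), Btla (1.15) and Cd274 rose. Cd5 and Cd300a were not called actin-based.

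The 12 size-ranked falls were led by Ephx1, microsomal epoxide hydrolase, which read 580, 1222 and 1035 with anti-IgM+CpG, against 7598, 8590 and 12726 with anti-IgM. Its change was -3.27 (SE 0.29, adjusted p = 8.67e-06) and -3.30 actin-based. Rgs2, a brake on G protein signalling, read 7313, 3758 and 4635 against 38477, 42957 and 29309 (-2.84, SE 0.23). Sgk1, a kinase related to Akt, read 491, 805 and 776 against 2857, 5998 and 3546 (-2.42, SE 0.42). The groups lay apart for these 3 genes, as the naming by size required. Stk10 read 1320, 154 and 446 against 2633, 3081 and 3667, with a wide spread in the first group (-2.53, SE 0.47). Lat, an adaptor best known from T cells, fell by 2.42. Egfl6 (-2.53), Ppp1r3b (-2.51), 2900026A02Rik (-2.45) and Ypel2 (-2.34) had anti-IgM+CpG signals mostly under the pseudocount.

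Cell survival genes moved in both directions, beside 3.72% higher and 5.36% lower of all genes tested. Of 18 apoptosis regulators 3 rose (Bcl2l1, Bcl2 by 0.88 and Pim3 by 0.76) and 3 fell, with 2 and 2 called in both fits. Bcl2 was not called actin-based, and another probe set of Pim3 was at -0.53. Bcl2l11, which encodes the pro-apoptotic BIM, read 6342, 8460 and 8288 with anti-IgM+CpG, against 66080, 54884 and 16319 with anti-IgM. Its change of -2.34 was -0.98 actin-based and called in both fits, with anti-IgM replicate 3 nearest to the anti-IgM+CpG arrays. Bmf fell by 1.35 and Bbc3, the gene of PUMA, by 1.31, and Bbc3 was not called actin-based. Of 24 quiescence genes 6 fell, 4 in both fits, including Btg2 (-1.66), Ccr6 (-1.60) and Tsc22d3 (-1.43), while Slfn2 rose by 1.74 (median -0.40). Myc read 36915, 29760 and 31551 against 32652, 39369 and 21811 and was not called (0.10, adjusted p = 0.825).

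Calls in the growth gene lists changed with the labelling term. Of 32 ribosome biogenesis genes 9 rose and none fell with the kit of the labels, and 0 were called actin-based. The list's median was 0.46 and 0.40 actin-based, above 0 under each alternative run. Rrp9 read 25526, 20642 and 24404 with anti-IgM+CpG, against 13500, 8125 and 15566 with anti-IgM, and Pes1 read 19287, 20341 and 21652 against 8563, 7750 and 20940, where anti-IgM replicate 3 reached the anti-IgM+CpG arrays. Of 29 proteasome genes 8 rose (median 0.36, 0.15 actin-based), and of these only Psmb9, an immunoproteasome subunit induced by interferon, was called actin-based, at 42580, 22068 and 20052 against 11683, 7474 and 13401. Of 36 G1-S and replication genes Ccnd2 rose and Cdc45 fell (not called actin-based), and of 25 mitosis genes none was called, 2 lists near or under the background shares. Of 17 glycolysis genes Hk2, the hexokinase of growing cells, rose by 1.04 (SE 0.14, adjusted p = 4.98e-04) in both fits and Slc2a3 fell by 0.53 and was not called actin-based.

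Other lists held few calls, beside 3.72% higher and 5.36% lower of all genes tested. Of 14 chemokines Cxcl10 (1.73), Ccl5 (1.12) and Ccl3 (1.08) rose and Cxcl1 fell by 0.98, and only Ccl3 was called in both fits. Ccl3 read 99994, 91312 and 85637 against 46072, 52048 and 34137, and its call ended without each of the 6 arrays in turn (adjusted p from 0.0515 to 0.127). Cxcl10 read 24746, 6258 and 5464 with anti-IgM+CpG, against 2891, 3084 and 2476 with anti-IgM, and without anti-IgM+CpG replicate 1 its change was 1.13 (adjusted p = 0.154). Of 14 plasma cell genes Fut8 (1.23) and Atf6 (0.62) rose and Cd28 fell, with only Fut8 in both fits. The other probe set of Fut8 was at -0.49, and with the mean of its probe sets Fut8 was not called (0.37, adjusted p = 0.304). Prdm1, which encodes Blimp-1, read 846, 599 and 631 against 1224, 1012 and 629, overlapping. In class switching and germinal centre genes, Batf rose and Mef2c fell by 1.08, of 17 tested. In MHC class II and loading genes, Rfx5 rose by 0.56 and H2-Ob fell by 1.02, of 16 tested. Of 19 cholesterol genes Pmvk rose by 0.69, of 24 unfolded protein response genes Atf6 rose and Ddit3 and Eif2ak3 fell, and of 18 heat shock genes Tcp1 rose and Hspa1a fell. Of the calls in these 3 lists Eif2ak3 alone was also called actin-based.

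**Figure D4:**
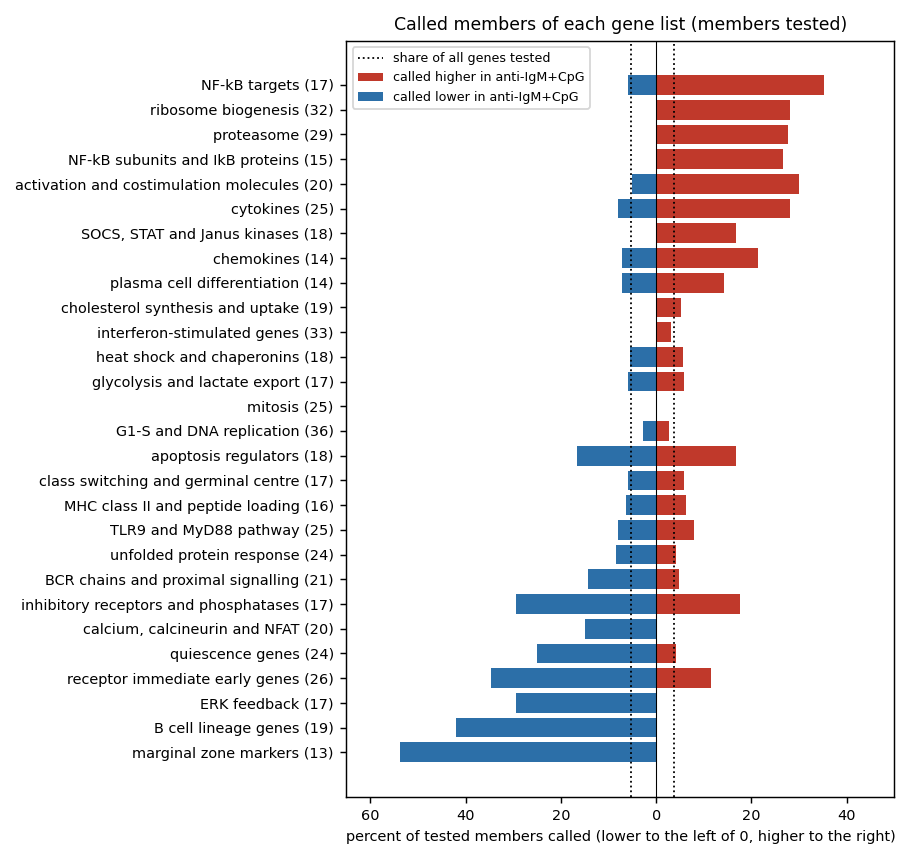
Share of the tested members of each gene list (number tested in brackets) called higher (right of 0) and lower (left of 0) in anti-IgM+CpG against anti-IgM with the kit of the labels, with dotted lines at the shares of all genes, 3.72% higher and 5.36% lower. Marginal zone and B cell lineage lists have the longest bars to the left, and NF-kB targets the longest to the right.

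The effect of CpG in the presence of anti-IgM was set against its effect without anti-IgM (CpG minus media), 2 contrasts that share no arrays. The difference of the effects was called for 329 genes (2.50%). Among the 103 genes named by the rule, 7 were called. Most large rises had a CpG effect of the same sign alone, such as Il6 (4.85 alone), Ifng (5.56 alone) and Tbx21 (2.88 alone). Tnfsf14 had 29.5 units on average with CpG alone and 22.7 in media, a change of 0.07, and its difference of effects of 2.64 was not called (adjusted p = 0.0663). Bcl2l11 averaged 46670 with CpG alone and 51260 in media, so that its fall was called only in the presence of anti-IgM, with a difference of -2.28 (adjusted p = 0.0325) that was -0.91 actin-based (adjusted p = 0.0555). Nfkbiz rose more with CpG alone (3.32) than in the presence of anti-IgM (1.58), a difference of -1.73 (adjusted p = 0.0112) called in both fits. Fcrla fell more with CpG alone (-4.26 against -1.58), a difference of 2.68 (adjusted p = 0.0142), also called in both fits. Levels without CpG were unequal. Fcrla averaged 12957 in media and 3067 with anti-IgM, and 656 with CpG alone and 900 with anti-IgM+CpG. Hk2 averaged 2609 and 7153 without CpG, and 13769 and 14717 with it. Nfkbiz averaged 5647 and 11427 without CpG, and 55879 and 34131 with it. The part of the unequal levels in these differences was not tested.

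**Figure D5:**
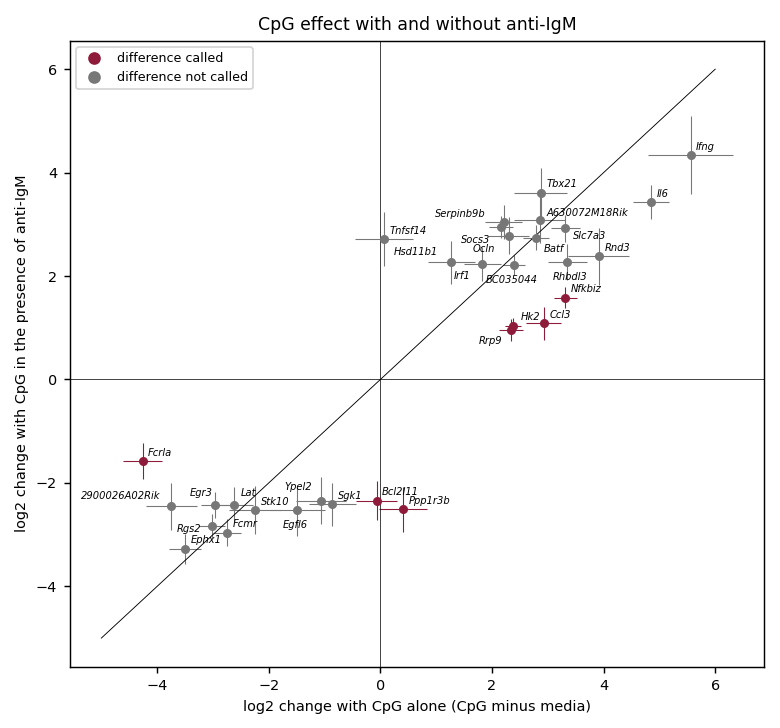
Log2 change with CpG in the presence of anti-IgM (y axis) against the change with CpG alone (x axis) for the genes named by size and those with a called difference, with standard errors as bars and the line of equal change. Bcl2l11 and Ppp1r3b lie near 0 on the x axis and below -2 on the y axis, and Nfkbiz, Ccl3, Hk2 and Rrp9 lie above 0 and under the line.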

How the data were processed

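RNA of 15 AM-14 B cell samples was measured on Affymetrix mouse arrays. The deposited values are probe set signals, a linear intensity made by the authors with MAS5, per the submitters' processing notes, with no version or target given. Per the labels, RNA was taken on Qiagen RNeasy columns and labelled with biotin by the Enzo or Ambion kit. The samples were grouped by title into 5 groups of 3.

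The table holds 45037 probe sets. A single gene symbol was given for 34945 of them, several for 932 and no symbol for 9160, and 34741 matched the RefSeq gene table. Probe sets with 1 symbol gave 18193 genes, each taken at its probe set of highest mean signal. Genes whose signal reached the median of the array on 3 or more arrays, 13160 in all, were tested. The 64 control probe sets stayed out, and the 3 empty cells were theirs. The pseudocount of 75.2 is the 20th percentile of all signals.

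One limma 3.58.1 model (R 4.3.3, lmFit and eBayes with an intensity trend) with group and labelling kit over all 15 arrays left 9 residual degrees of freedom. Tests were two-sided, with Benjamini-Hochberg adjustment over all genes tested and calls at 0.05. An exact permutation test of 3 arrays against 3 cannot go below 0.1 and was not used, and the precision is limited by the number of arrays. On simulated data for this comparison, with 200 of 13160 genes changed, 45% of 2-fold and 77% of 4-fold changes were called, with 4 unchanged genes called. The simulation took the kit of the labels as the true labelling effect. It therefore does not cover false calls of genes that follow the actin ratio. Figures used Python 3.11.15 and matplotlib 3.10.9.

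Genes named are the 15 largest rises and 12 largest falls called in both fits, with separate arrays, a mean in the higher group at or above the 40th percentile of signals and probe sets that go one way, not immunoglobulin or sex-linked, and up to 4 called members of each of the lists. Other members were named to complete counts, or for interest, after their values were seen. The members and the 35 lists were chosen with earlier results of these data known. Dennd1c, Ptcd1 and Snn passed the size rule except that another probe set of theirs went the other way.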

Additional observations from a re-analysis of the deposited data

Results flagged for a closer look

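For 7 of the named genes the effect of CpG in the presence of anti-IgM differed from its effect without anti-IgM, by a limma contrast of the 2 effects adjusted over all genes tested. The difference of log2 effects was -2.28 for Bcl2l11 (adjusted p = 0.0325), -2.91 for Ppp1r3b (adjusted p = 0.0216), -1.73 for Nfkbiz (adjusted p = 0.0112), -1.84 for Ccl3 (adjusted p = 0.0387), -1.34 for Hk2 (adjusted p = 0.00633), -1.37 for Rrp9 (adjusted p = 0.0262) and 2.68 for Fcrla (adjusted p = 0.0142). With labelling read from the actin ratio the difference was -0.91 for Bcl2l11 (adjusted p = 0.0555), -2.29 for Ppp1r3b (adjusted p = 0.0793) and -1.15 for Ccl3 (adjusted p = 0.158), and these 3 were no longer called. It was -1.29 for Nfkbiz (adjusted p = 0.0282), -1.27 for Hk2 (adjusted p = 0.00822), -1.66 for Rrp9 (adjusted p = 0.0162) and 1.75 for Fcrla (adjusted p = 0.0201), which were called again. Other named genes had a difference called only actin-based. These were Socs3 (1.27, adjusted p = 0.0183), Bcl3 (1.24, adjusted p = 0.0399), Btg2 (0.84, adjusted p = 0.0386), Wdr12 (-1.38, adjusted p = 0.0193) and Tcp1 (-0.79, adjusted p = 0.0331). The part of labelling, of the low Xist level of the anti-IgM+CpG arrays and of unequal levels without CpG in these differences was not tested.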

How the results depend on the processing

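Against 1194 calls (489 higher, 705 lower), the total, higher and lower calls were 702, 324 and 378 after quantile normalization, 353, 121 and 232 with no labelling term, 507, 171 and 336 with the actin-based term, 526, 172 and 354 with the log2 actin ratio as a covariate, 689, 232 and 457 without an intensity trend, 303, 114 and 189 with the 6 arrays alone, and 591, 137 and 454 at 2-fold or more. With the Enzo arrays of the labels there were 1837 calls, 797 of them higher, and after shifting arrays to the same median 1218 higher and 259 lower. On the low-ratio arrays alone, with only anti-IgM replicate 3 as the anti-IgM sample and 2 residual degrees of freedom, assuming that it varies like the others, there were 8 calls, 6 higher and 2 lower, and 1081 genes had an unadjusted p under 0.05. Of the 27 genes named by size 7 were called there (Tbx21, Il6, Socs3, Slc7a3, Batf, Irf1 and Fcmr). Leaving out each replicate in turn gave 409 to 2137 calls, 148 to 931 higher and 261 to 1206 lower. The other settings (pseudocounts, filters and averaging over probe sets) stayed within 1.5 times the main counts. Averaging over probe sets turned the sign of 36 of the 1194 calls and ended 15 named calls, among them Bcl2l1, Nfkbiz, Irf8, Fut8, Irak3, Fcgr2b and Bmf. The replicate block gave 1213 calls, and same-numbered samples did not deviate together (correlations of 0.042, 0.0013 and 0.051), so the numbers were not taken as pairs. Pes1 had a log2 change of -0.0373 on the low-ratio arrays alone; the cause was not tested.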

Other observations

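Further genes with large changes under the kit of the labels and little change with the actin-based term were Rab6b, at 31.9, 24.8 and 24.1 signal units on anti-IgM+CpG arrays against 916, 2120 and 16.4 on anti-IgM arrays (log2 change -2.52, and 0.08 actin-based), and Ehf, at 5096, 9313 and 5342 against 278, 613 and 4060 (2.68, and 0.24 actin-based). Itsn1 read 2718, 2476 and 3411 on anti-IgM+CpG arrays against 277, 125 and 2447 on anti-IgM arrays, a change of 2.37 that was 0.36 actin-based. In all 3 genes anti-IgM replicate 3 was nearer to the anti-IgM+CpG arrays than to the other anti-IgM arrays. They were picked after their values were seen. Over all genes tested, 352 had their 7 low-ratio arrays all above the 8 high-ratio arrays and 452 had them all below, and of these 53 and 112 were called higher and lower with the kit of the labels, while 0 and 3 were called so in both fits. These genes were chosen by the actin class, which is a term of the actin-based fit. The low counts in both fits follow largely from that choice.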
